A study of Mus musculus with 6 samples.

Results

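The genes described here are 9 mouse genes of retinoid uptake, carriage, conversion, breakdown and response: Stra6, Crabp2, Rdh10, Dhrs3, Cyp26b1, Rara, Rarb, Rarg and Rxra. They were chosen by name, and all 9 were found among the 55421 Ensembl genes counted in each library. Corneal RNA was sequenced at an age of 20 weeks from mice heterozygous for a Pax6 mutation (libraries M1, M2 and M3) and from wildtype mice (libraries W1, W2 and W3). Pax6 encodes a paired-box transcription factor of eye development and of the corneal epithelium. The labels give neither the mutant allele nor strain or sex, and the series design calls the 3 libraries of a genotype biological replicates. The question was which transcripts differ between mutant and wildtype corneas.

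Vitamin A reaches tissues as retinol. Cells take it up through the membrane receptor STRA6 and oxidize it to retinal and then to retinoic acid, which carrier proteins of the cytoplasm bring to the nucleus. There, retinoic acid receptors paired with retinoid X receptors switch genes on or off, and enzymes of the CYP26 family clear the acid again. The corneal and conjunctival surface depends on this supply: vitamin A deficiency turns it into a dry, keratinizing epithelium that loses its goblet cells. Several of the 9 genes, among them Stra6, Crabp2, Dhrs3, Rarb and Cyp26b1, are themselves known to respond to retinoic acid in other tissues.

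In total, libraries held 16858005 to 21846406 counts in genes. Pax6 RNA, the check of the labels, was at 454, 394 and 356 CPM (counts scaled to library size) in M1, M2 and M3, against 849, 746 and 774 CPM in W1, W2 and W3, a fall of 0.98 ± 0.14 on the log2 scale (SE; adjusted p = 0.00421, edgeR). Krt12, the keratin that defines corneal epithelium, was at 4145 to 7163 CPM in mutant and 15314 to 21773 CPM in wildtype libraries, so the labelled tissue was present in each. The summed level of 9 corneal epithelial genes (5 called lower, 1 higher) was 20628 to 27486 CPM in mutant and 39591 to 53423 CPM in wildtype libraries, and that of 10 conjunctival and mucosal genes (6 of 8 tested higher, Tff3 at 0) was 6219 to 7652 CPM in mutant and 377 to 674 CPM in wildtype libraries. A list of 10 keratocyte genes (5 higher, 1 lower) summed to 1155 to 5096 CPM in mutant and 472 to 695 CPM in wildtype libraries, and 10 leukocyte genes (7 higher) to 193 to 231 CPM in mutant and 43.8 to 67.5 CPM in wildtype libraries. W1 was the outermost library on the main axis of variation (50.05% of the variance), at 122.3 where the other 5 lay between -67.2 and 23.2. It also held the least RNA of 6 pigment cell genes, 9.87 CPM against 192 and 316 CPM in the other wildtype and 243 to 428 CPM in the mutant libraries. W3 held 861 CPM of 3 retinal genes, against 6.83 to 35.4 CPM in the other 5 libraries. In whole corneas fewer cells of a type and less RNA per cell cannot be told apart.

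**Figure D1:**
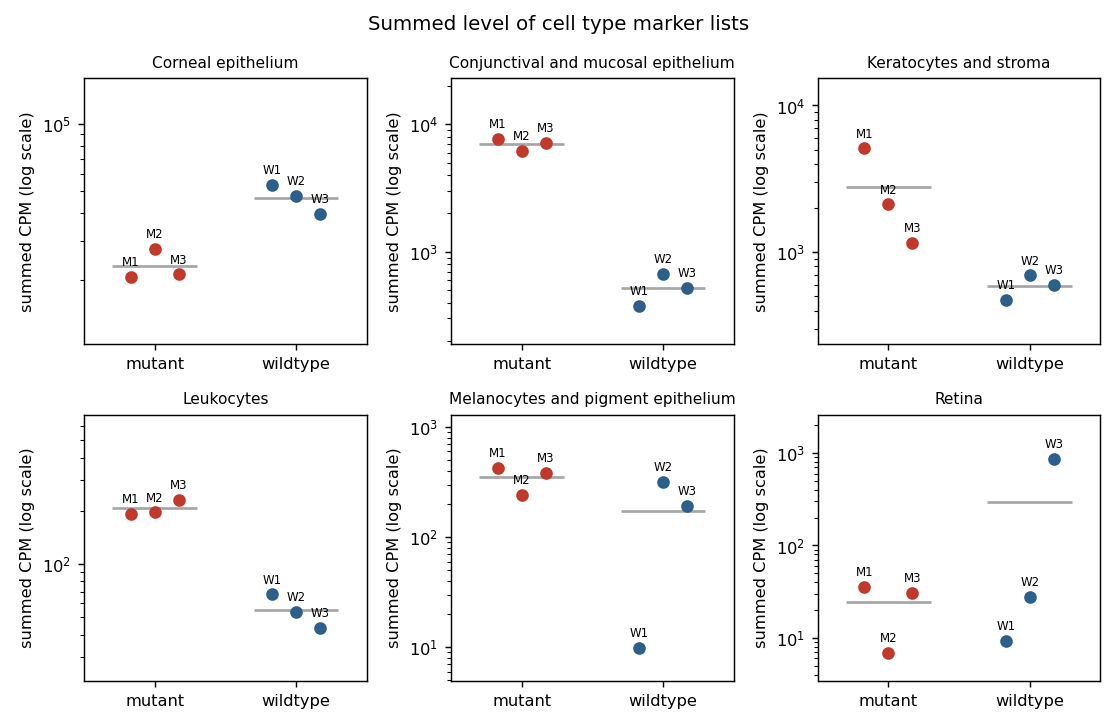
Summed CPM (log axis) of 6 marker lists in each mutant library (M1 to M3, red) and wildtype library (W1 to W3, blue); the grey bar is the group mean. The corneal epithelial sum was lower and the conjunctival, keratocyte and leukocyte sums were higher in all 3 mutant libraries, whereas pigment cell genes were lowest in W1 (9.87 CPM) and retinal genes highest in W3 (861 CPM).

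Of the 9 genes, Stra6 and Crabp2 rose in mutant corneas, Cyp26b1 fell, and 6 did not pass the test. All 9 had enough counts to be tested. A gene counts as changed here when edgeR's quasi-likelihood p, after Benjamini-Hochberg adjustment over all 15209 tested genes, is under 0.05. Over those genes 10.1% were called, 5.59% as higher and 4.46% as lower. The median log2 fold change (mutant minus wildtype) of the 9 genes was 0.28, with 7 above 0, beside a median of 0.01 over all tested genes, of which 50.75% were above 0. The genotypes' ranges were separate for 5 of the 9, namely Stra6, Crabp2, Rdh10, Cyp26b1 and Rarg. Over all tested genes this held for 31.9%.

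**Figure D2:**
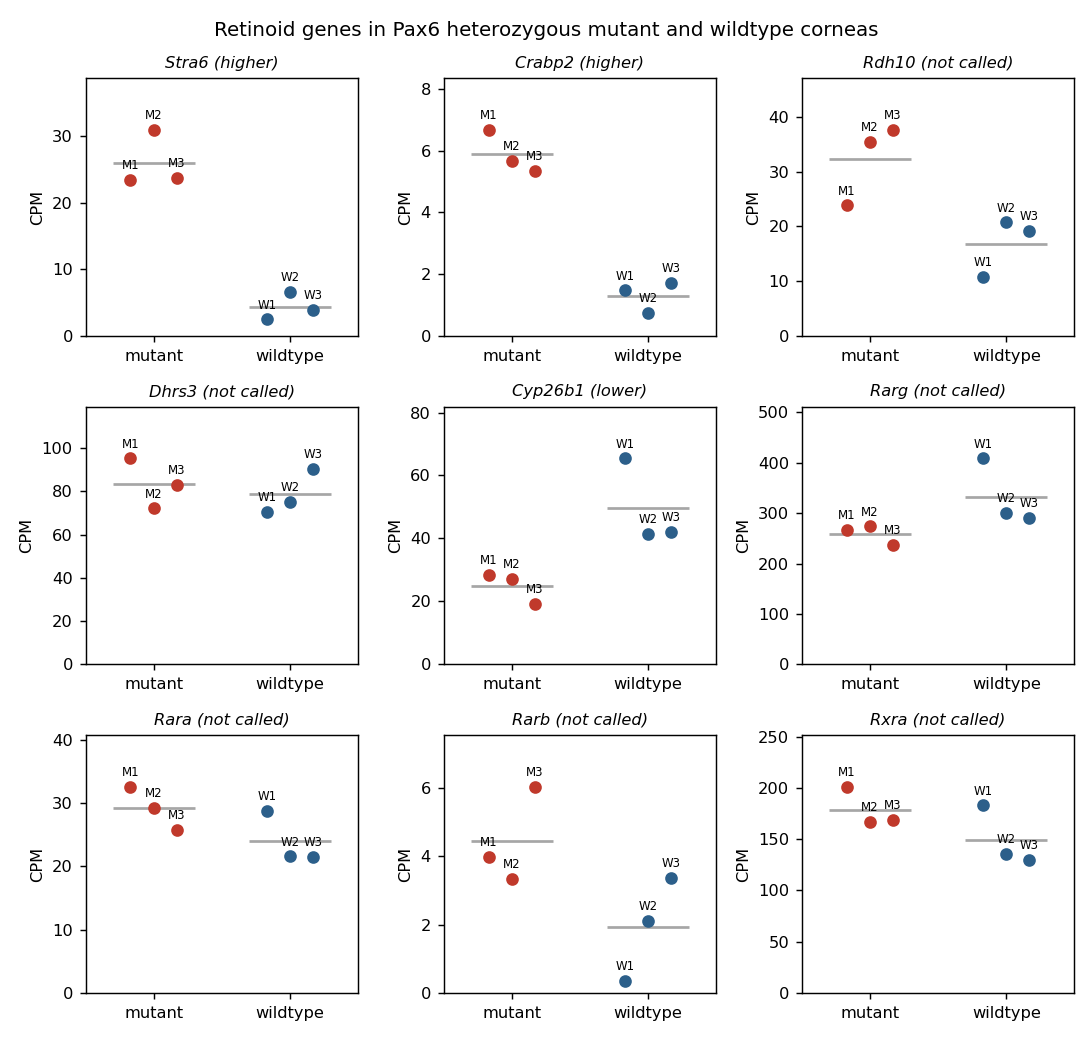
CPM (linear axis from 0) of the 9 retinoid genes in each mutant library (M1 to M3, red) and wildtype library (W1 to W3, blue), with the group mean as a grey bar and the result of edgeR's test in the title. Stra6 was at 23.4 to 30.9 CPM in mutant and 2.50 to 6.64 CPM in wildtype libraries, and Cyp26b1 was lower in all 3 mutant libraries.

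Stra6 encodes the cell surface receptor that takes retinol from its plasma carrier, retinol-binding protein. It had 382, 557 and 528 counts in M1, M2 and M3, against 44, 117 and 74 in W1, W2 and W3. Scaled, this was 23.4, 30.9 and 23.8 CPM in mutant against 2.50, 6.64 and 3.96 CPM in wildtype libraries. Each mutant library lay well above each wildtype library, and the wildtype libraries varied more among themselves in proportion than the mutant ones. Stra6 rose by 2.57 ± 0.35 on the log2 scale (SE), a 5.95-fold higher level (adjusted p = 0.00363, edgeR's quasi-likelihood test). The call held without any single library and with M1 and W1 both left out, where the log2 fold change was 2.35. Stra6 (ENSMUSG00000032327) lies on the plus strand of chromosome 9 from 58063788 to 58153996 in GRCm38, and its exons overlap those of no other gene in GENCODE M21.

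Stra6 is abundant in retinal pigment epithelium, so pigment cell genes are given beside it. The summed level of the 6 pigment cell genes was 428, 243 and 380 CPM in M1, M2 and M3, against 9.87, 316 and 192 CPM in W1, W2 and W3. Those sums overlapped between the genotypes. Rpe65, the retinoid isomerase of the pigment epithelium, was at 0.612, 0.0555 and 0.810 CPM in mutant against 0, 4.48 and 1.60 CPM in wildtype libraries. By sum, conjunctival, keratocyte and leukocyte markers were higher in all mutant than in all wildtype libraries, as Stra6 was. Single genes differed in this. On the keratocyte list, Dcn, Col1a1, Col1a2, Col5a1 and Col6a1 were higher in all mutant libraries. Kera, Lum, Ptgds and Thbs4 overlapped between the genotypes, and Aldh1a1 was lower. Among the mutant libraries, Stra6 was highest in M2 (30.9 CPM) and nearly equal in M1 and M3 (23.4 and 23.8 CPM). In M1, M2 and M3 the conjunctival sum was 7652, 6219 and 7205 CPM. The keratocyte sum was 5096, 2114 and 1155 CPM there, and the leukocyte sum 193, 196 and 231 CPM. The part of these cells, and of pigment cells, in the result was not tested.

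By a fixed measure of likeness, the genes whose pattern over the 6 libraries was nearest to that of Stra6 were Fxyd5, Irf4 and Msn. The measure is the root mean square difference of centred log2 CPM, at 0.14 for Fxyd5, 0.19 for Irf4 and 0.22 for Msn. Fxyd5 encodes a regulator of the sodium pump and of cell adhesion, Irf4 a transcription factor of lymphocytes, dendritic cells and pigment cells, and Msn the actin linker moesin. Their log2 fold changes were 2.86, 3.53 and 2.33. Fxyd5 and Msn were called (adjusted p of 0.00766 and 0.00742, edgeR), and Irf4 was not (0.0618). Irf4 was scarce, at a mean of 1.355 CPM in mutant and 0.111 CPM in wildtype corneas.

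Crabp2 encodes a small cytoplasmic protein that binds retinoic acid and hands it to the receptors. It had 109, 102 and 119 counts in M1, M2 and M3, against 26, 13 and 32 in W1, W2 and W3. In CPM these were 6.67, 5.66 and 5.36 in mutant against 1.48, 0.738 and 1.71 in wildtype libraries. The mutant libraries lay close together and above every wildtype library. Crabp2 rose by 2.16 ± 0.44 on the log2 scale (SE), a 4.48-fold higher level (adjusted p = 0.0191, edgeR's quasi-likelihood test). The call ended without M1, M2 or M3 (adjusted p of 0.0761, 0.0705 and 0.0756 by the same edgeR test), with log2 fold changes of 2.07, 2.20 and 2.23. Crabp2 (ENSMUSG00000004885) lies on the plus strand of chromosome 3 from 87948666 to 87953376. Its relative Crabp1 had 13, 7 and 0 counts in the mutant and 0, 0 and 1 in the wildtype libraries and was not tested.

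Rdh10 oxidizes retinol to retinal, and Dhrs3 is the enzyme that reduces retinal back to retinol. Rdh10 was at 23.8, 35.4 and 37.6 CPM in M1, M2 and M3, against 10.8, 20.7 and 19.1 CPM in W1, W2 and W3. All mutant libraries were above all wildtype libraries, with M1 nearest to W2. Its log2 fold change was 0.94 ± 0.28 (SE; 95% interval 0.29 to 1.58), and it did not pass the test (adjusted p = 0.0749, edgeR's quasi-likelihood test). DESeq2 did call it (adjusted p = 0.0171), as did edgeR without a filter on low counts (0.00022) and without M1 and W1 (0.0150). Rdh10 (ENSMUSG00000025921) lies on the plus strand of chromosome 1 from 16105774 to 16133734.

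Dhrs3 was at 95.2, 72.1 and 82.8 CPM in M1, M2 and M3, against 70.4, 75.0 and 90.2 CPM in W1, W2 and W3. The genotypes overlapped, with the highest value in M1 and the lowest in W1. The log2 fold change of Dhrs3 was 0.09 ± 0.15 (SE), with a 95% interval of -0.26 to 0.43 (adjusted p = 0.790, edgeR's quasi-likelihood test). Without M1 it was -0.02, so no direction is given. Dhrs3 (ENSMUSG00000066026) lies on the plus strand of chromosome 4 from 144892827 to 144928209.

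Cyp26b1 is a cytochrome P450 that oxidizes retinoic acid and so ends its action. It had 463, 489 and 428 counts in M1, M2 and M3, against 1153, 731 and 788 in W1, W2 and W3. In CPM these were 28.3, 27.1 and 19.3 in mutant against 65.4, 41.5 and 42.1 in wildtype libraries. Every mutant library was below every wildtype library, and W1 was the highest. Cyp26b1 fell by 0.997 ± 0.23 on the log2 scale (SE), a 1.996-fold lower level (adjusted p = 0.0312, edgeR's quasi-likelihood test). Without W1 it still fell, by 0.75 (adjusted p = 0.0353, edgeR). The call ended without M1, M2, M3 or W2, with an adjusted p of 0.0726, 0.0900, 0.121 and 0.0501 (edgeR) and log2 fold changes of -1.10, -1.06, -0.85 and -1.11. The summed level of 9 corneal epithelial marker genes was also lower in the mutant libraries and highest in W1. Of the 9 genes, 5 were called lower and 1 higher. Only Krt12, Krt5 and Aldh3a1 were highest in W1. Most of the genes, namely Tkt, Upk1b, Slurp1, Clu, Gsto1 and Dsg1a, were highest in W2. Upk1b, for example, was at 349 CPM in W1, against 371 and 366 CPM in W2 and W3. The part of these genes in the result was not tested.

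Cyp26b1 (ENSMUSG00000063415) lies on the minus strand of chromosome 6 from 84571414 to 84593908. Wnk2 and Abcb9 were the nearest genes to its pattern, at root mean square differences of 0.08 and 0.10 in centred log2 CPM. Their log2 fold changes were -0.87 and -0.98, and neither was called (adjusted p of 0.0532 and 0.0848, edgeR). Wnk2 encodes a kinase of the family that regulates chloride transport and Abcb9 a lysosomal peptide transporter. The other enzymes of its family were scarce. Cyp26a1 had 1, 1 and 2 counts in M1, M2 and M3, against 0, 46 and 54 in W1, W2 and W3, and Cyp26c1 had 0, 0 and 1 in the mutant against 0, 14 and 0 in the wildtype libraries. Neither passed the filter on low counts, so neither was tested. Cyp26a1 had more than a few counts only in W2 and W3, and its difference from the mutant libraries has no p-value. Rpe65 was also highest in W2 and W3 (4.48 and 1.60 CPM), whereas the sum of the 6 pigment cell genes was highest in M1 (428 CPM). The part of pigment cells in the Cyp26a1 counts was not tested.

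**Figure D3:**
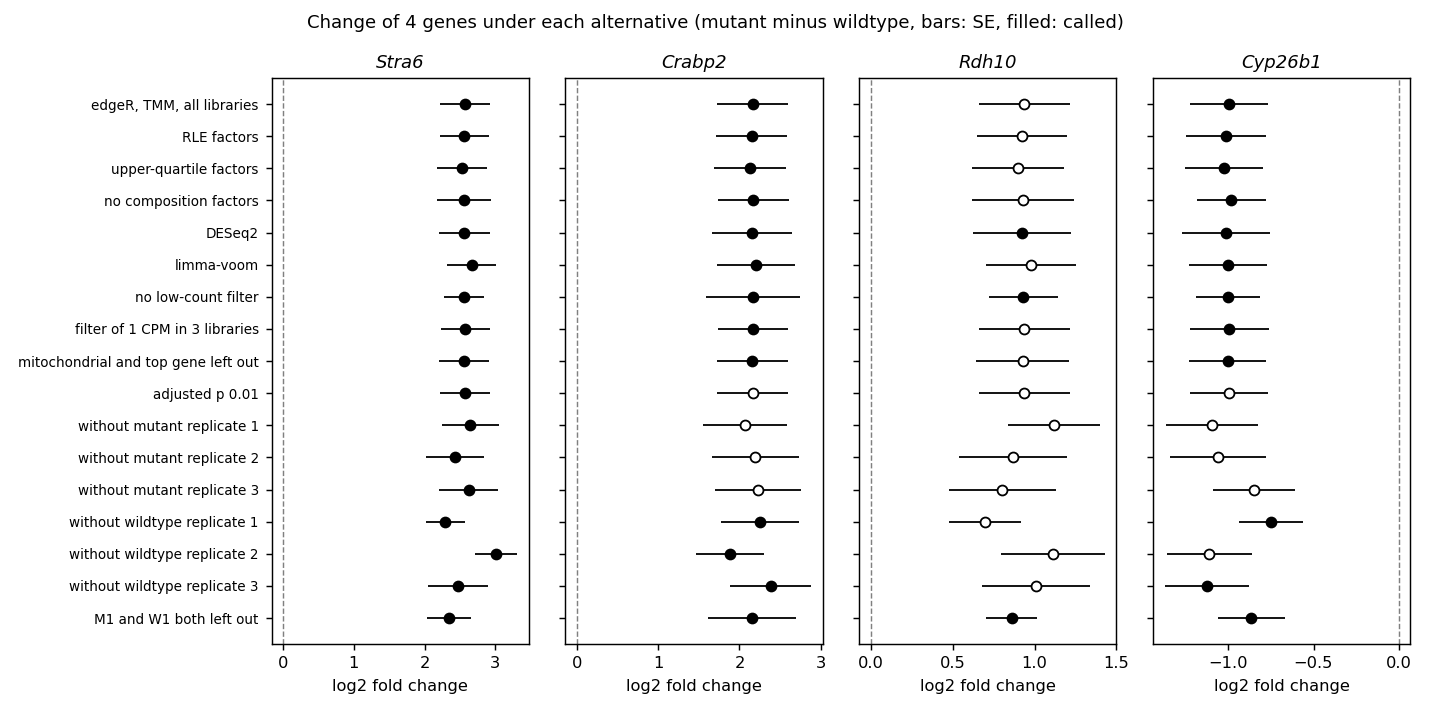
Log2 fold change (mutant minus wildtype) of Stra6, Crabp2, Rdh10 and Cyp26b1 in edgeR's test with all libraries and under 16 alternatives, with bars of 1 SE and filled points where the gene was called. Stra6 was called throughout (2.29 to 3.01), Crabp2 and Cyp26b1 lost the call when a mutant library was left out, and Rdh10 was called under 3 alternatives.

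The receptors were carried mainly by Rarg and Rxra. Levels are compared between genes per kilobase of annotated exon (RPKM). Rarg, the retinoic acid receptor that predominates in epithelia such as skin, stood at 60.8 ± 4.49 RPKM in mutant and 78.1 ± 15.4 RPKM in wildtype corneas (SD, n = 3 each). Rxra, the retinoid X receptor that pairs with it in skin, stood at 32.7 ± 3.52 RPKM in mutant and 27.4 ± 5.35 RPKM in wildtype corneas. Rara, the broadly expressed receptor, was at 6.69 ± 0.78 RPKM in mutant and 5.49 ± 0.96 RPKM in wildtype corneas, and Rarb at 0.845 ± 0.268 RPKM in mutant and 0.368 ± 0.289 RPKM in wildtype corneas.

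None of the 4 receptor genes among the 9 passed the test (edgeR's quasi-likelihood test). None had an unadjusted p under 0.05, and DESeq2 and limma-voom called none of them either. In CPM, Rarg was at 266, 274 and 238 in M1, M2 and M3, against 409, 300 and 290 in W1, W2 and W3. All mutant libraries were below all wildtype libraries, although M2 and W3 lay close together. The log2 fold change of Rarg was -0.36 ± 0.16 (SE; 95% interval -0.72 to 0.00), and its adjusted p was 0.215 in edgeR's test. For Rara it was 0.28 ± 0.18 (-0.12 to 0.69) and for Rxra 0.26 ± 0.16 (-0.11 to 0.63), each at an adjusted p of 0.391 (edgeR). Rara was at 32.6, 29.2 and 25.8 CPM in the mutant and 28.8, 21.6 and 21.6 CPM in the wildtype libraries, and Rxra at 201, 167 and 169 CPM in the mutant and 183, 136 and 129 CPM in the wildtype libraries. In both cases W1 lay within the mutant range.

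As a share of the summed RPKM of the 3 retinoic acid receptor genes, Rarg took 88.4%, 89.8% and 88.8% in M1, M2 and M3, against 93.5%, 92.9% and 92.4% in W1, W2 and W3. Rara took 10.6%, 9.36% and 9.39% in the mutant libraries, against 6.44%, 6.53% and 6.70% in the wildtype libraries. The genotypes did not overlap in either share, and no test of the shares was made. Rarg was thus the main retinoic acid receptor transcript in both genotypes. Rarg (ENSMUSG00000001288) lies on the minus strand of chromosome 15 from 102234938 to 102257517, Rara (ENSMUSG00000037992) on the plus strand of chromosome 11 from 98927818 to 98974942, and Rxra (ENSMUSG00000015846) on the plus strand of chromosome 2 from 27676440 to 27762957.

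**Figure D4:**
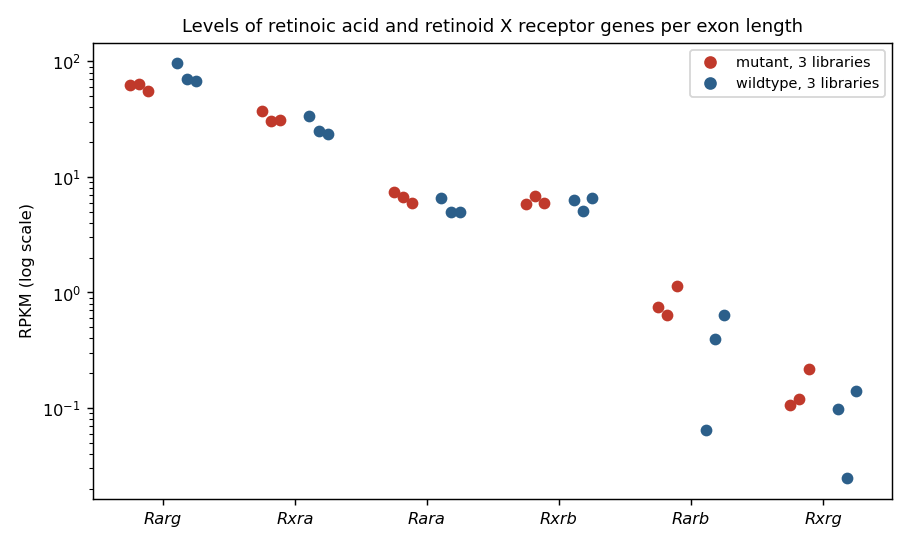
RPKM (log axis) of the retinoic acid receptor genes Rarg, Rara and Rarb and the retinoid X receptor genes Rxra, Rxrb and Rxrg in the 3 mutant (red, left) and 3 wildtype libraries (blue, right) of each gene. Rarg and Rxra were the highest in every library, at 60.8 and 32.7 RPKM on average in mutant corneas, and Rarb and Rxrg were the lowest.

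Rarb is a receptor gene that retinoic acid itself induces, through a response element close to a start site. That element is shown because it is the only retinoic acid motif found near a start of these genes. The printed stretch of RefSeq's GRCm38.p6 sequence is chr14:16575483-16575558 on the minus strand, the strand of the gene. The capitals mark the matched letters of the repeated half-sites and the bases between them, without the leading base of the first half-site. They begin 52 bases before the RefSeq start.
Rarb: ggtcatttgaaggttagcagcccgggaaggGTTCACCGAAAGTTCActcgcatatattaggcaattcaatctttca
The search took GGTCA or GTTCA, then 6 bases of any letter (spacing DR5) or 3 (spacing DR2), then GGTCA or GTTCA, on both strands. A full half-site has 1 more base before these letters, which was left open. The names DR5 and DR2 therefore count 1 base less between half-sites than the search did. It covered 250 bases before to 50 after each start. RefSeq's table held 17 starts of 7 of the genes, with none for Crabp2 or Rdh10, and 1 of the 17 held a match. Of all 32851 starts, 0.645% held either spacing and 0.247% the DR5 spacing. A match describes letters and not a site in use.

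Rarb had 65, 60 and 134 counts in M1, M2 and M3, against 6, 37 and 63 in W1, W2 and W3. Scaled, these were 3.98, 3.33 and 6.03 CPM in mutant against 0.340, 2.10 and 3.37 CPM in wildtype libraries. The genotypes overlapped by a narrow margin between M2 and W3, and W1 was far below the rest. The log2 fold change was 1.20 ± 0.72 (SE), with a wide 95% interval of -0.45 to 2.84 (adjusted p = 0.368, edgeR's quasi-likelihood test). It was 1.83 without W3 and 0.70 without W1, and was not called in either case. W1 was also the library with the least pigment cell and vessel RNA. The sum of 6 vessel genes was 110, 55.2 and 50.9 CPM in M1, M2 and M3, against 2.78, 33.3 and 40.9 CPM in W1, W2 and W3, and its part in the result was not tested. Rarb (ENSMUSG00000017491) lies on the minus strand of chromosome 14 from 16430839 to 16819156. Its counts are uncertain, because 1793 bases of its exons, 34.06%, overlap those of Top2b on the opposite strand, and no source used here states whether reads were counted by strand.

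Ordered per length, the 9 genes in mutant corneas ran from Rarg over Rxra, Dhrs3 (28.5 ± 3.95 RPKM), Rdh10 (7.76 ± 1.78), Rara, Cyp26b1 (4.66 ± 0.92), Stra6 (4.46 ± 0.73) and Crabp2 (4.46 ± 0.52) down to Rarb. In wildtype corneas Cyp26b1 (9.28 ± 2.55 RPKM) came right after Dhrs3 and before Rara and Rdh10 (4.05 ± 1.28), and Crabp2 (0.990 ± 0.384) and Stra6 (0.749 ± 0.361) stood just above Rarb (SD, n = 3 each). Libraries of Rxra and Dhrs3 overlapped in both genotypes, as did those of Rdh10 and Rara. Those of Cyp26b1, Stra6 and Crabp2 overlapped in mutant corneas, whereas in wildtype corneas all 3 libraries of Cyp26b1 were above those of Stra6 and Crabp2. The exon length is that of all annotated transcripts together, which can exceed that of the transcript in use.

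The rest of the pathway was followed in 68 further genes listed by role, of which 49 had enough counts to be tested. Of these 5 rose and 5 fell, which is 10 of 49 beside 10.1% of all genes, with a median log2 fold change of 0.17. Both directions occurred within single steps. Aldh1a3 and Aldh1a1, enzymes that make retinoic acid from retinal, moved in opposite directions.

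Aldh1a3 was at 95.3, 91.4 and 94.7 CPM in M1, M2 and M3, against 55.4, 41.0 and 29.2 CPM in W1, W2 and W3. Aldh1a1 was at 60.4, 40.0 and 34.8 CPM in the mutant against 81.4, 148 and 142 CPM in the wildtype libraries. Neither gene's genotypes overlapped, and Aldh1a1 is also on the keratocyte list, of whose genes it was the one that fell. Aldh1a3 rose by 1.16 ± 0.21 on the log2 scale (adjusted p = 0.0132, edgeR's quasi-likelihood test), and Aldh1a1 fell by 1.46 ± 0.28 (adjusted p = 0.0151, edgeR). Per length, Aldh1a3 was at 20.3 RPKM and Aldh1a1 at 9.12 RPKM on average in mutant corneas, against 9.07 and 25.1 RPKM in wildtype corneas, so their order differed between the genotypes. Aldh1a2, the third enzyme, was at 8.39, 1.44 and 4.01 CPM in the mutant and 0, 1.99 and 1.07 CPM in the wildtype libraries and was not called (adjusted p = 0.298, edgeR). The call of Aldh1a3 ended without M1, M2, M3 or W2 (adjusted p of 0.0501, 0.0501, 0.0619 and 0.0537, edgeR), and that of Aldh1a1 without M2, M3 or W2 (0.0736, 0.0732 and 0.0544).

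Retinol carriers and uptake genes other than Stra6 were 8 tested genes. None fell by edgeR's test, by DESeq2 or by limma-voom, and none was lower at an unadjusted p under 0.05. Rbp2, a retinol carrier known from the intestine, averaged 87.8 ± 9.68 CPM in mutant and 64.5 ± 14.0 CPM in wildtype corneas. It was not called (unadjusted p = 0.0367, adjusted p = 0.173, edgeR). Lrp1, an endocytic receptor for lipoprotein remnants, which carry retinyl esters, had a log2 fold change of 0.41 ± 0.18. It was not called either (unadjusted p = 0.0489, adjusted p = 0.208, edgeR). For both genes every mutant library was above every wildtype library, which held for 17.1% of all tested genes. Scarb1, a lipoprotein receptor that also takes up carotenoids, and Lpl, lipoprotein lipase, had -0.16 ± 0.21 and 1.14 ± 0.84 and overlapped between the genotypes.

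Of 4 tested genes of retinyl ester storage and release, Lipe fell. It encodes hormone-sensitive lipase, which also releases retinol from its esters. Lipe was at 15.1, 16.0 and 13.1 CPM in M1, M2 and M3, against 37.3, 27.5 and 31.1 CPM in W1, W2 and W3, and fell by 1.12 ± 0.17 on the log2 scale (adjusted p = 0.00658, edgeR's quasi-likelihood test). None of the 4 rose by edgeR, by DESeq2, by limma-voom or at an unadjusted p under 0.05. The lipase Pnpla2 and the acyltransferase Dgat1 had log2 fold changes of 0.17 ± 0.19 and 0.53 ± 0.39 and were not called. Lrat, which makes the esters, had 18, 3 and 6 counts in the mutant and 0, 55 and 3 in the wildtype libraries and was not tested. An antisense gene shares 15.6% of the exon bases of Lipe, so its counts are uncertain.

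Among 14 tested dehydrogenases and reductases of retinol and retinal besides Rdh10 and Dhrs3, Rdh16 and Adh7 rose. None fell by edgeR, DESeq2 or limma-voom, and 1 was lower at an unadjusted p under 0.05, Rdh13 (-0.54 ± 0.18 on the log2 scale). Rdh16 was at 11.6, 11.9 and 10.5 CPM in M1, M2 and M3, against 2.50, 2.90 and 2.25 CPM in W1, W2 and W3. The libraries of each genotype lay close together, and Rdh16 rose by 2.15 ± 0.27 on the log2 scale (adjusted p = 0.00269, edgeR's quasi-likelihood test). It belongs to a cluster of close relatives on chromosome 10 and shares 381 exon bases with a pseudogene on its own strand, so its counts are uncertain.

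Adh7, an alcohol dehydrogenase of surface epithelia that also oxidizes retinol, was at 299, 200 and 295 CPM in M1, M2 and M3, against 55.9, 105 and 112 CPM in W1, W2 and W3. It rose by 1.54 ± 0.28 on the log2 scale (adjusted p = 0.0120, edgeR's quasi-likelihood test), a call that ended without M1 or M3 (0.0505 and 0.0587). Adh1, at 461 ± 58.9 CPM in mutant and 388 ± 93.3 CPM in wildtype corneas, did not pass the test (adjusted p = 0.506, edgeR). Nor did the reductase Akr1b3 (-0.44 ± 0.21) or the dehydrogenase Dhrs7 (0.56 ± 0.28). By sum, conjunctival marker genes were higher in the same mutant libraries as Rdh16 and Adh7, and their part in the result was not tested. An antisense gene, with 0 to 2 counts a library, shares 2.85% of the exon bases of Adh7.

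Of the carriers and breakdown enzymes of retinoic acid besides Crabp2 and Cyp26b1, Fabp5 rose and Cyp2s1 fell. The other 3 did not pass the filter on low counts and were not tested. Fabp5 is a fatty acid carrier that also binds retinoic acid and delivers it to the receptor PPAR delta. It was at 66.2, 85.4 and 112 CPM in M1, M2 and M3, against 42.8, 41.4 and 16.0 CPM in W1, W2 and W3, a rise of 1.40 ± 0.36 on the log2 scale (adjusted p = 0.0472, edgeR's quasi-likelihood test). This call was close to the threshold and ended without M1, M2, M3 or W2 (0.0759, 0.127, 0.187 and 0.0845), and with RLE factors or with mitochondrial genes and the most abundant gene left out (0.0507 and 0.0512). Cyp2s1, whose human counterpart metabolizes retinoic acid, was at 15.4, 14.6 and 9.32 CPM in the mutant against 49.5, 35.3 and 35.0 CPM in the wildtype libraries. It fell by 1.61 ± 0.24 (adjusted p = 0.00547, edgeR) and held without any single library. A long noncoding RNA gene on the opposite strand, with 0 to 10 counts a library, shares 5.27% of its exon bases. Fabp5 has processed copies in the genome, so its counts are uncertain.

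Bco1, which cleaves beta-carotene to retinal, was at 0.306, 0.943 and 0.585 CPM in M1, M2 and M3, against 4.88, 2.27 and 4.06 CPM in W1, W2 and W3. It was scarce, with 5 to 17 counts in mutant and 40 to 86 counts in wildtype libraries, and fell by 2.59 ± 0.60 on the log2 scale (adjusted p = 0.0315, edgeR's quasi-likelihood test). The call ended without M1, M2, M3, W1 or W3 (0.0944, 0.0606, 0.133, 0.0522 and 0.0813, edgeR) and in limma-voom (0.0613). Bco2, its relative that cleaves elsewhere in the molecule, was not called (-0.83 ± 0.48, adjusted p = 0.349, edgeR).

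Of 9 tested receptor partners, Ncoa2 fell and none rose by edgeR, DESeq2 or limma-voom. At an unadjusted p under 0.05 in edgeR's test none was higher and 3 were lower, namely Ncoa2, Ncoa3 and Nrip1. Ncoa2, a coactivator of nuclear receptors, was at 132, 136 and 129 CPM in M1, M2 and M3, against 219, 167 and 177 CPM in W1, W2 and W3. Its decrease of 0.51 ± 0.13 on the log2 scale was close to the threshold (adjusted p = 0.0490, edgeR's quasi-likelihood test) and was not called without M1, M2, M3, W2 or W3 (0.143, 0.137, 0.173, 0.0627 and 0.0767). The corepressor Ncor1 had a log2 fold change of -0.14 ± 0.12, the coactivator Ncoa3 of -0.36 ± 0.15 and the corepressor Nrip1 of -0.38 ± 0.16, all not called. Ppard, the receptor served by Fabp5, had 0.40 ± 0.19 (adjusted p = 0.246, edgeR), and Rxrb 0.05 ± 0.16 (adjusted p = 0.887, edgeR).

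None of 7 tested genes listed as retinoic acid responsive in other tissues was called by edgeR's quasi-likelihood test. At an unadjusted p under 0.05 in edgeR's test, 3 were higher and none lower. Many genes pass that threshold: Tgm2, just above it at 0.0505 (edgeR), ranked 3637 by p among all 15209 tested genes. DESeq2 called Tle3 as higher (adjusted p = 0.0429), and limma-voom called none. Tgm2, a transglutaminase that retinoic acid induces in many cells, was at 1049, 1397 and 1162 CPM in M1, M2 and M3, against 1882, 1424 and 1444 CPM in W1, W2 and W3 (log2 fold change -0.40 ± 0.17, adjusted p = 0.211, edgeR). Foxc1, a transcription factor of the front of the eye, had 0.43 ± 0.18, and the corepressor Tle3 had 0.41 ± 0.13 (adjusted p of 0.193 and 0.0878, edgeR). Cdx1 had no count in any library, which allows up to 3 counts, or 0.135 to 0.184 CPM, in each.

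**Figure D5:**
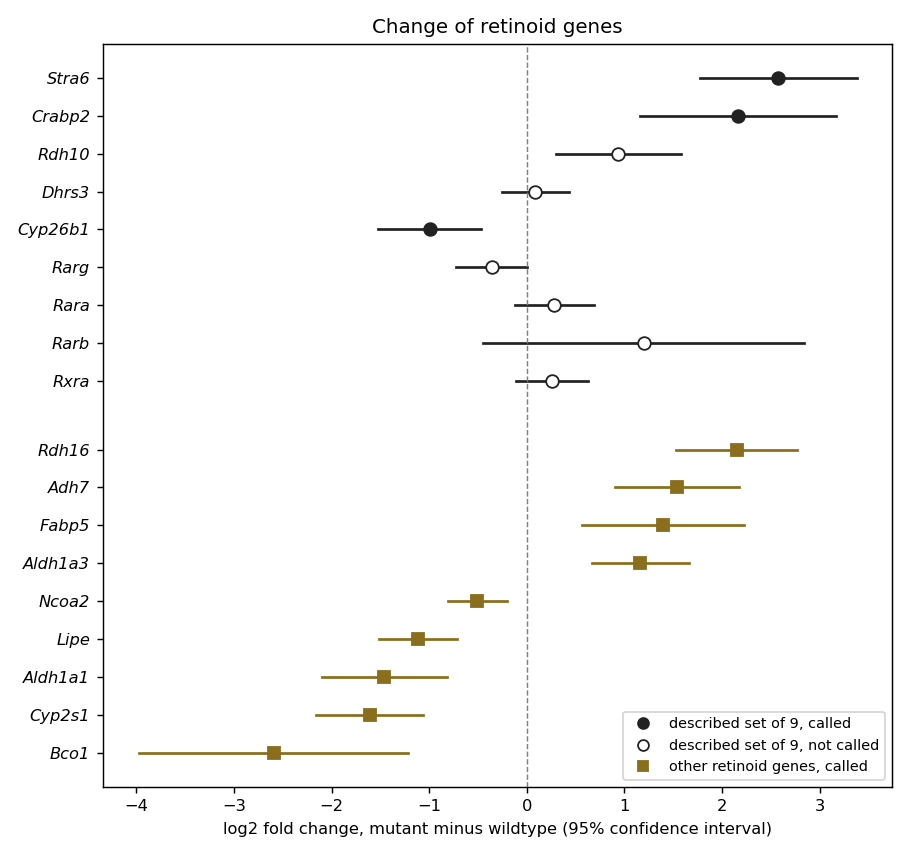
Log2 fold change (mutant minus wildtype, horizontal axis) with its 95% confidence interval for the 9 retinoid genes (circles, filled where called) and 9 other retinoid genes that edgeR called (squares). Stra6 (2.57), Crabp2 (2.16) and Rdh16 (2.15) were higher and Cyp26b1 (-0.997), Aldh1a1 (-1.46), Cyp2s1 (-1.61) and Bco1 (-2.59) lower in mutant corneas.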

How the data were processed

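Per the labels' protocols, total RNA of cornea was prepared with a stranded kit for very small inputs and read in pairs. The tools named are HTSeq, HISAT2, Trim Galore, edgeR and SAMtools, with build GRCm38, per the submitters' processing notes, and no source used here gives their versions, settings or strand option. The deposited values are raw counts per Ensembl gene, 1 file per library. The 5 summary lines of each file (30.1% of all lines' total not aligned, 16.3% in no feature, 3.50% not unique, 2.75% of low quality, 0.679% ambiguous) were left out. Names and exons came from GENCODE M21, which matched 55240 of 55421 IDs.

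A low-count filter (filterByExpr; minimum total 15, minimum count 10) left 15209 genes, which were scaled by TMM and tested with edgeR 4.0.16 (glmQLFit, glmQLFTest) in R 4.3.3, with genotype as the only term. CPM used library totals times TMM factors, and RPKM the union of annotated exons. Alternatives were other scaling factors and filters, DESeq2 1.42.0, limma-voom (limma 3.58.1), an adjusted p of 0.01 and libraries left out. The test was also run on simulated counts, drawn independently for each gene and library. Such counts hold no outlying library such as W1, so that run cannot show how the test behaves with one. Floors cover counting error only. The labels do not say whether a library is 1 cornea, 1 animal or a pool, so p-values measure the spread between these libraries.

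The 9 genes and all lists were chosen with earlier results of these data known. Of the other retinoid genes, the rule names those called and otherwise up to 4 per role with the highest mean CPM. Ppard, Rxrb, Rxrg and Cdx1 were named after their values were seen. Likeness of pattern used log2 CPM with a prior count of 2. Some genes that the rules name are not reported here.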

Additional observations from a re-analysis of the deposited data

How the results depend on the processing

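Over 16 alternatives, Stra6 stayed called (log2 fold change 2.29 to 3.01), and Rara, Rarb, Rarg and Rxra stayed uncalled in their direction. Of these receptors Rxra came nearest to a call, at 0.43 without W1 (adjusted p = 0.0506, edgeR). With 1 library left out, 1 to 2 of the 9 genes were higher and 0 to 1 lower, 1 to 7 and 2 to 7 of the other retinoid genes, and 340 to 1227 and 271 to 847 of all genes; Crabp2 was at 1.88 to 2.38, Cyp26b1 at -1.13 to -0.75 and Dhrs3 at -0.0172 (without M1) to 0.18. Without M1 and W1, Dhrs3 was at -0.11 and Rdh10 was called at 0.86. DESeq2 called 1325 genes higher and 1033 lower, with Rdh10 at 0.92. With no low-count filter these were 1588 and 1137, with Rdh10 at 0.93 and 8 other retinoid genes lower. The causes were not tested. At an adjusted p of 0.01, 1 of the 9 genes was higher and 0 lower, losing Crabp2 (2.16) and Cyp26b1 (-0.997), with 1 and 2 of the other retinoid genes and 307 and 261 of all genes. In the 250 bases before the start alone, 0.502% of promoters held a motif. No paired analysis was possible because the labels hold no replicate numbers that the genotypes share, and those used here follow accession order.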
